A study of Mus musculus with 78 samples.

Results

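The genes described here set, copy, oxidise and protect DNA methylation in 4-cell and 8-cell blastomeres of the mouse embryo. They were chosen by symbol as Dnmt1, Uhrf1, Dnmt3a, Dnmt3b, Dnmt3l, Tet1, Tet2, Tet3, Dppa3 and Tdg, and a gene counted as measured where its Entrez number has a row in both gene tables. Of the 10 genes, 9 have such rows, among 15218 genes listed at the 4-cell stage and 15342 at the 8-cell stage. Tdg, the glycosylase that removes oxidised cytosines, has no row in either table and was not analysed here.

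DNA methylation is lost from most of the genome during cleavage and is set again around implantation. Dnmt1 copies methylation to the new strand at replication, and Uhrf1 brings it to DNA methylated on the old strand only. Dnmt3a and Dnmt3b methylate new sites, and Dnmt3l, which has no catalytic activity, stimulates them. Tet1, Tet2 and Tet3 oxidise methylcytosine, and Tet3 is known as the Tet enzyme of the oocyte and zygote. Dppa3 (also called Stella) is a maternal factor that shields methylation of the maternal genome from oxidation.

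The libraries are Smart-seq2 libraries of single blastomeres, which cover whole transcripts. Mice with CAG-Brainbow2.1 at Gt(ROSA)26Sor were crossed with Tg(CAG-cre/Esr1*)5Amc/J mice, so that every embryo of both stages carried a copy of the Brainbow cassette and a copy of a tamoxifen-inducible Cre gene, both under the broadly active CAG promoter. All embryos were collected at the 2-cell stage after hormone injection of the mothers, treated with 4-hydroxytamoxifen in vitro and cultured in KSOM, and no untreated embryos are compared here. The labels give 36 4-cell blastomeres from 9 embryos and 31 8-cell blastomeres from 4 embryos, and the tables hold 24 and 26 columns, of which 5 in the 8-cell table are named NA. The column names identify neither embryo nor lineage, and columns were not given to embryos by their order or their totals, so blastomeres that share an embryo are not separated here. Each stage was therefore treated as 1 sample, values are given as the lowest, median and highest blastomere with no test, and lineages were not compared. The stages were normalized in separate tables, which holds for every level set across them below.

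Levels are given in FPKM, fragments per kilobase of transcript and per mega of counted fragments, so that genes of different length can be compared. The total by which the values were divided was 6.87 M to 16.9 M fragments in the 4-cell blastomeres and 2.34 M to 21.8 M in the 8-cell ones (M stands for mega). A value of 0 stood for no counted fragment. Of the 24 4-cell columns, 2 (S18 and S20) had fewer than 4770 genes above an FPKM of 1, and of the 26 8-cell columns, 2 (S57 and S58) had fewer than 4515, which is 2/3 of the median of their stage. Values without these 4 are given for Uhrf1, Dnmt3a, Tet3 and Dppa3 and for the stage difference of Dnmt1. Of 7 markers of cleavage-stage embryos, 5 had a median above 1 at both stages, and all 3 blood markers had no row. Of 7 oocyte markers, 3 of the 4-cell and 1 of the 8-cell medians were above 1, and their summed level had a median of 96.9 FPKM (31.2 to 231) and then 58.4 (13.5 to 220). Of 6 blastocyst markers 5 and then 6 were listed, 2 and then 4 with a median above 1, and their sum had a median of 36 (0.0390 to 186) and then 140 (41.4 to 375). The part of these shifts in the stage differences below was not tested. Of 4 sperm markers 2 were listed at each stage, with a median sum of 0. Of 9 markers of cumulus and granulosa cells, 4 were listed among 4-cell and 3 among 8-cell genes, and only Amhr2 had a median above 0 there, with 36.6 and 41.5.

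Each row is a gene total, and several of these genes start at more than 1 site. The upstream sequences of the gene with the lowest 8-cell level relative to 4-cell (Dnmt1), of the gene with the widest 8-cell spread (Dnmt3b) and of the most abundant Dnmt3 gene of the 4-cell stage (Dnmt3l) are shown for their content of CpG, the dinucleotide that these enzymes act on. Each is the 120 bases before a start, 5′ to 3′, from RefSeq on GRCm38.p6, with every CpG in capitals. The Dnmt3b stretch ends at 82 bases, where the exon of a predicted transcript begins.
Dnmt1, start 1, chr9:20959889-20960008, minus strand: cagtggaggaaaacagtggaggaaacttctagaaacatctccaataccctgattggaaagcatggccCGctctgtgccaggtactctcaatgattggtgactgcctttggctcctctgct
Dnmt1, start 2, chr9:20952980-20953099, minus strand: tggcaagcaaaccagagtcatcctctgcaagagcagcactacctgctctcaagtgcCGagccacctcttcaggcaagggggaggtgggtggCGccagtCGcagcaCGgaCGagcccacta
Dnmt3b, chr2:153649329-153649410, plus strand: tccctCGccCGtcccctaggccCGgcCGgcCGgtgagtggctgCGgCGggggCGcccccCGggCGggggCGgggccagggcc
Dnmt3l, start 1, chr10:78042167-78042286, plus strand: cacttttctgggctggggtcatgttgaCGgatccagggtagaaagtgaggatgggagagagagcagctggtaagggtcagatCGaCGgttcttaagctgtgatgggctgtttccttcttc

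Promoter windows of 300 bases, with 250 before the start, were given for 9 of the 10 genes, all but Dppa3. The motif counted was CG, which reads the same on both strands, and 94.6% of the 32851 promoters of the genome hold at least 1. The median promoter held 7 CpG. The 3 Dnmt1 starts held 2, 12 and 33 CpG from upstream to downstream. The 3 Dnmt3l starts held 6, 4 and 3, and 56.4% of all promoters held at least as many as the first. The Dnmt3b window held 30, which 11.7% of promoters reached, the Tet1 window held 17 and the Tet2 window held 57. Gene totals do not separate the starts, so no level is given for any single start.

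Dnmt1 (Entrez 13433, chr9:20907206-20959888, minus strand) ranged from 0.0120 to 35.1 FPKM with a median of 7.72 in the 24 4-cell blastomeres. It was above an FPKM of 1 in 22 of them, and the other 2 were the gene-poor columns S18 and S20, with 1 to 3 fragments each. In the 26 8-cell blastomeres it ranged from 0 to 22.1 with a median of 2.26, and 16 were above 1. It was at 0 in 6 8-cell blastomeres and in none at the 4-cell stage. A count of 0 allows a Dnmt1 level of up to 0.025 to 0.20 FPKM in those 6 8-cell blastomeres, taking 3 fragments as the limit for each blastomere. The upper limit is that of S57 alone, and no other 8-cell blastomere has a limit above 0.038. These limits cover counting error only, and transcripts lost before amplification are not covered. The ranges of the stages overlapped. Of the 8-cell blastomeres, 7 lay above the 4-cell median, and of the 4-cell blastomeres, 19 lay above the 8-cell median.

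Uhrf1 (Entrez 18140, chr17:56303337-56323486, plus strand) was at 0 in many blastomeres of both stages. It ranged from 0 to 20.9 FPKM with a median of 1.48 at the 4-cell stage, where 13 of 24 blastomeres were above 1 and 7 were at 0. The 8-cell values ranged from 0 to 20.8 with a median of 2.36, with 15 of 26 above 1 and 9 at 0. Without the gene-poor columns the medians were 3.24 and 3.51, so the 4-cell median more than doubled. A value above 0 and up to 1 was found in 4 of the 4-cell and 2 of the 8-cell blastomeres. A copy of 72.5% of the Uhrf1 transcript lies elsewhere in the genome at 97.7% identity, and only uniquely aligned reads were counted, so the level of Uhrf1 is uncertain.

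Dnmt1 and Uhrf1 were not detected together in every cell. At the 4-cell stage Dnmt1 was above 1 in each of the 13 blastomeres with Uhrf1 above 1 and in 9 others. Of the 8-cell blastomeres, 10 had both genes above 1, 6 had Dnmt1 alone, 5 had Uhrf1 alone and 5 had neither. Dnmt1 was the higher of the pair in 19 of 24 4-cell blastomeres. In the 8-cell blastomeres Dnmt1 was higher in 12 and Uhrf1 in 11, and 3 were equal at 0.

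Dnmt3a (Entrez 13435, chr12:3801559-3914443, plus strand) was the most even of the Dnmt genes. It ranged from 0 to 17.4 FPKM with a median of 4.28 at the 4-cell stage and from 0.0430 to 11.4 with a median of 4.07 at the 8-cell stage. It was above 1 in 22 of 24 and in 23 of 26 blastomeres. The highest 4-cell value and the 0 were both in gene-poor columns, S20 and S18, and without these the range was 0.388 to 13.2.

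Dnmt3b (Entrez 13436, chr2:153649411-153687730, plus strand) ranged from 0.0302 to 14.1 FPKM with a median of 5.21 at the 4-cell stage. The 8-cell range was 0 to 44.0, with a median of 8.22. In both stages 18 blastomeres were above 1, of 24 and of 26. The 8-cell values lay apart, with 8 blastomeres at or below 1, of which 4 were at 0, 6 between 1 and 10, and 12 above 10. The zeros were in S53, S57, S58 and S60, and S57 and S58 are gene-poor. At the 4-cell stage 5 blastomeres were above 10. The 3 highest 8-cell values were 44.0, 39.5 and 34, each above every 4-cell value.

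Dnmt3l (Entrez 54427, chr10:78042287-78063622, plus strand) ranged from 0 to 34.5 FPKM with a median of 9.90 at the 4-cell stage and from 0 to 36.8 with a median of 7.52 at the 8-cell stage. It was above 1 in 21 of 24 and in 20 of 26 blastomeres. Every other blastomere was at 0, 3 in the 4-cell and 6 in the 8-cell table, so no blastomere had a value above 0 and below 1. Of the 3 4-cell zeros, 2 were in gene-poor columns (S18 and S20), and of the 6 8-cell zeros 1 was (S57). In the blastomeres at 0, the count allows up to 0.076 to 0.12 FPKM at the 4-cell stage and 0.053 to 0.48 FPKM at the 8-cell stage. The limit of 0.48 is that of S57, and no other 8-cell blastomere has a limit above 0.089.

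Tet1 (Entrez 52463, chr10:62804570-62887469, minus strand) was the Tet gene present in most cells. It ranged from 0.0575 to 17.5 FPKM with a median of 6.37 at the 4-cell stage and from 0 to 17.6 with a median of 10.1 at the 8-cell stage. It was above 1 in 22 of 24 and in 21 of 26 blastomeres. Of the 8-cell blastomeres, 17 lay above the 4-cell median, and 5 of the 4-cell blastomeres lay above the 8-cell median. The 0 was in S57, the 8-cell column with the smallest total.

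Tet2 (Entrez 214133, chr3:133463677-133545136, minus strand) ranged from 0 to 7.60 FPKM with a median of 0.274 at the 4-cell stage, where 7 of 24 blastomeres were above 1. In 8-cell blastomeres it ranged from 0 to 14 with a median of 0.360, and 9 of 26 were above 1. The highest 8-cell value stood alone, since the next was 6.54. Tet3 (Entrez 194388, chr6:83362373-83457208, minus strand) ranged from 0 to 1.44 with a median of 0.0464 at the 4-cell stage, where 2 of 24 were above 1 and 9 were at 0. The 8-cell values ranged from 0 to 6.28 with a median of 0, where 6 of 26 were above 1 and 14 were at 0. Without the gene-poor columns the Tet3 medians were 0.101 and 0. The highest Tet3 value, in S55, rested on 1127 estimated fragments, and that column had 4963 genes above 1. The Tet3 limit for a 0 was at most 0.11 FPKM in any blastomere of the 8-cell stage and 0.020 in any but S57.

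Dppa3 (Entrez 73708, chr6:122626424-122630271, plus strand) was on another scale. It ranged from 1303 to 4901 FPKM with a median of 3658 at the 4-cell stage and from 2474 to 10167 with a median of 3260 at the 8-cell stage. Its median ranked first of all listed genes at both stages. It had the highest FPKM of all genes in 22 of 24 4-cell and in 23 of 26 8-cell blastomeres, and was second in the others. It made up 0.488% to 1.04% of the summed FPKM of a 4-cell blastomere and 0.554% to 2.16% at the 8-cell stage, where the highest share after that of S57 was 1.02%. Its exons span 818 bases, and by estimated fragments, which are not per length, it ranked between 2 and 100 in 4-cell and between 4 and 32 in 8-cell blastomeres. The lowest value was in S18 and the highest in S57, both gene-poor. Without the gene-poor columns the FPKM ranges were 2420 to 4901 and 2474 to 4868, and the ranks by fragments were 2 to 13 and 5 to 32. Near copies of at least 50% of the transcript lie at 2 other places, at 90.8% and 97.7% identity, the longest over the whole transcript, so its level after unique alignment is uncertain too.

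**Figure D1:**
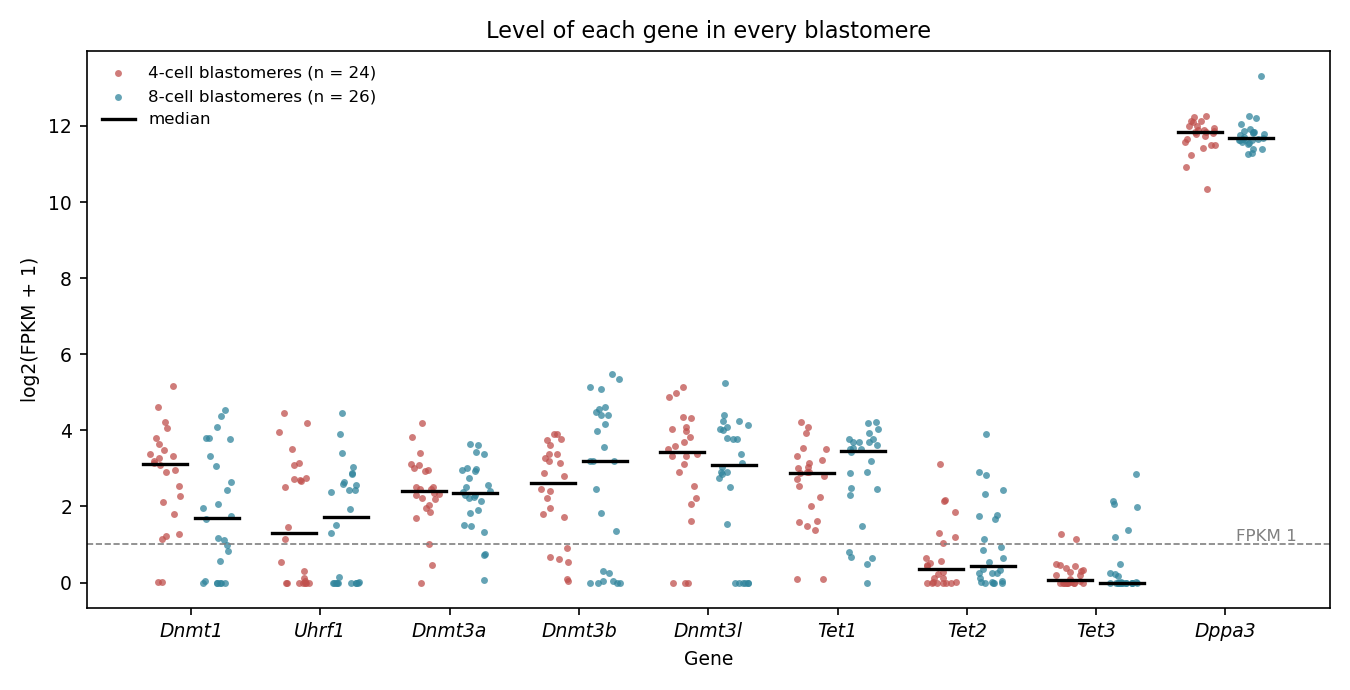
Level of the 9 measured genes as log2(FPKM + 1) in each 4-cell (red, n = 24) and 8-cell (blue, n = 26) blastomere. Black bars are medians and the dashed line is an FPKM of 1. Dppa3 sits between 1303 and 10167 FPKM, above every other gene, and Dnmt3l has no blastomere between 0 and 1.

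The order of the genes by median was Dppa3, Dnmt3l, Dnmt1, Tet1, Dnmt3b, Dnmt3a, Uhrf1, Tet2 and Tet3 at the 4-cell stage. At the 8-cell stage it was Dppa3, Tet1, Dnmt3b, Dnmt3l, Dnmt3a, Uhrf1, Dnmt1, Tet2 and Tet3. Dnmt1 stood in place 3 of the 4-cell order and in place 7 of the 8-cell order. Only Dppa3 was set apart from its neighbour by its interquartile range, the span between the 25th and 75th percentile. The interquartile ranges of all other neighbours in both orders overlapped. Such overlap does not show that 2 genes are alike, since both were measured in the same blastomeres. Within 8-cell blastomeres Tet2 was higher than Tet3 in 19, lower in 5 and equal in 2. Tet1 was higher than Dnmt3b in 12, lower in 13 and equal in 1. Among all listed genes, 30.2% had a higher 4-cell median than Dnmt1 and 37.5% a higher 8-cell median, and for Tet1 the shares were 32.2% and 26.6%.

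The stages were compared by the difference of the median log2(FPKM+1), 8-cell minus 4-cell, over the 13604 genes with a row in both tables. Dnmt1 was lower at the 8-cell stage by a difference of -1.42, the only member with a size of at least 1, which is a 2-fold difference. None of the 9 members was higher by 2-fold. Over all 13604 genes 9.67% were at least 2-fold lower and 5.17% at least 2-fold higher, so 1 of 9 is near the background. Restricted to the 6514 genes that exceeded 1 FPKM in 25 or more of all 50 blastomeres, 14.3% were lower and 8.72% higher by 2-fold. Of the members, 7 passed that filter, all but Tet2 and Tet3, and Dnmt1 was among them. The filter leaves the difference of each gene unchanged, so it alters only the background shares. The median difference was -0.06 over the 9 members and 0.00 over all genes.

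Tet1 and Dnmt3b had a difference of 0.58 each, toward the 8-cell stage. Uhrf1 had 0.43, but 0.17 without the gene-poor columns, 0.00 without the columns named NA and -0.08 with the mean of the log values, so it had no settled direction. Tet2 had 0.09, Dnmt3a -0.06, Tet3 -0.07, Dppa3 -0.17 and Dnmt3l -0.35. The sign of Dnmt3a, Tet2, Tet3 and Dppa3 was not kept in every alternative either, whereas Dnmt1, Dnmt3b, Dnmt3l and Tet1 kept theirs in all that were run. The Dnmt1 difference was -1.38 to -1.46 with any single blastomere left out and -1.33 without the gene-poor columns. It was -0.93 with the mean of the log values in place of the median, which is short of 2-fold. A wider removal of columns with few genes, chosen after the data were seen, took out 4 of the 4-cell and 6 of the 8-cell blastomeres, those with under 0.8 of the median number of genes. Dnmt1 then had -1.16, Uhrf1 1.10 and Dnmt3b 1.15, so that the last pair was past 2-fold. With this removal 1297 of all 13604 genes were 2-fold lower and 731 were 2-fold higher. By the log2 ratio of the mean FPKM with nothing added, also chosen after the data were seen, Dnmt1 had -0.72 (means of 8.70 and 5.29), Uhrf1 -0.26, Dnmt3b 1.11 (5.95 and 12.9) and Tet3 1.82 (0.215 and 0.757). Dnmt3b and Tet3 were thus past 2-fold by their means and Dnmt1 was not, where 22.3% of all genes were 2-fold lower and 15.5% higher.

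**Figure D2:**
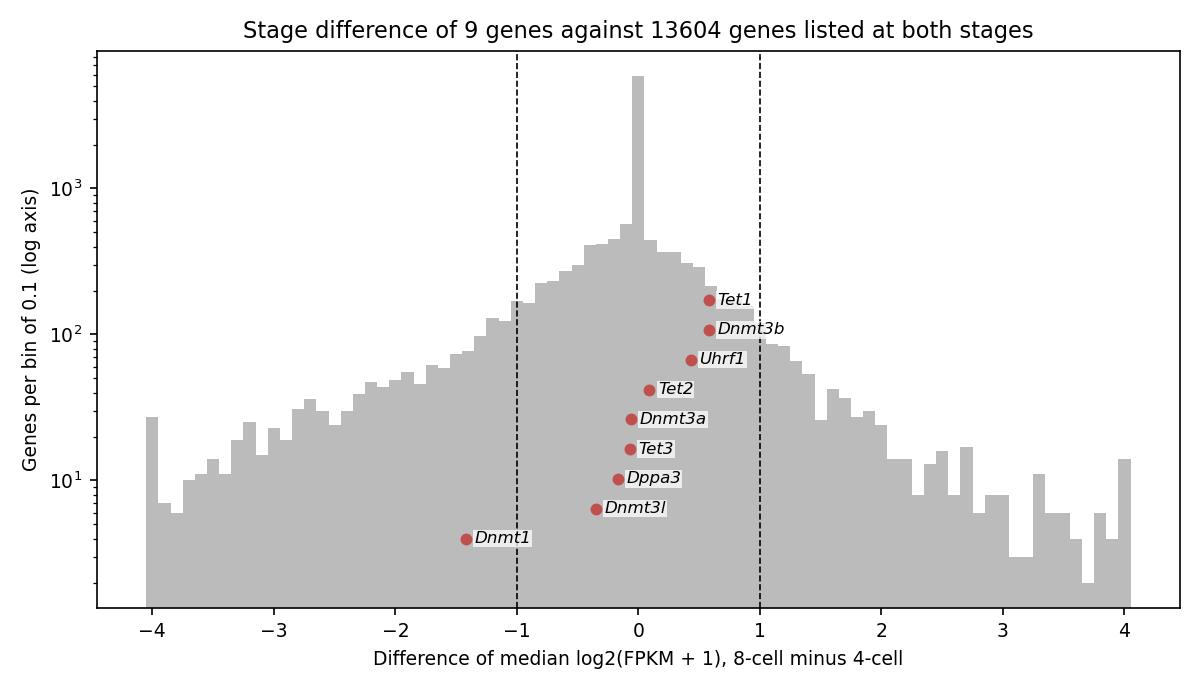
Difference of the median log2(FPKM + 1) between stages for the 9 genes (red points, whose height has no meaning) over the histogram of 13604 genes (grey, log axis, end bins hold all values beyond 4). Dashed lines mark 2-fold. Dnmt1 at -1.42 is the only red point outside them.

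The genes were then summed by role within each blastomere. The sums are levels and depend on how the tables were scaled against each other, as the ratios below do slightly through the 1 added to each sum. Maintenance is the sum of Dnmt1 and Uhrf1, de novo that of Dnmt3a, Dnmt3b and Dnmt3l, and oxidation that of Tet1, Tet2 and Tet3. Maintenance had medians of 10.2 FPKM (4-cell) and 6.04 FPKM (8-cell). De novo had 19.2 and 22.1. Oxidation had 6.72 and 11.8. The de novo sum was the largest of the classes by median at both stages, while the order of maintenance and oxidation was not the same at both.

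The log2 ratio of maintenance to de novo, with 1 added to each sum, ranged from -4.50 to 1.16 with a median of -0.93 at the 4-cell stage. At the 8-cell stage it ranged from -6.54 to 2.28 with a median of -1.68. Maintenance was above de novo in 6 of 24 and in 3 of 26 blastomeres. Without Dnmt3l in the de novo sum the medians were 0.21 and -0.84, so at the 4-cell stage the sign rested on the inclusion of Dnmt3l.

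The log2 ratio of maintenance to oxidation had a median of 0.72 at the 4-cell stage, with a range of -3.85 to 3.24, and was above 0 in 17 of 24 blastomeres. At the 8-cell stage the median was -0.37, with a range of -4.23 to 1.93, and 12 of 26 were above 0. With Dnmt1 as the only maintenance gene the 8-cell median was -1.71. The log2 ratio of de novo to oxidation was above 0 in 21 of 24 and in 21 of 26 blastomeres, with medians of 1.72 and 1.12. The blastomeres of the stages overlapped in all 3 ratios.

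**Figure D3:**
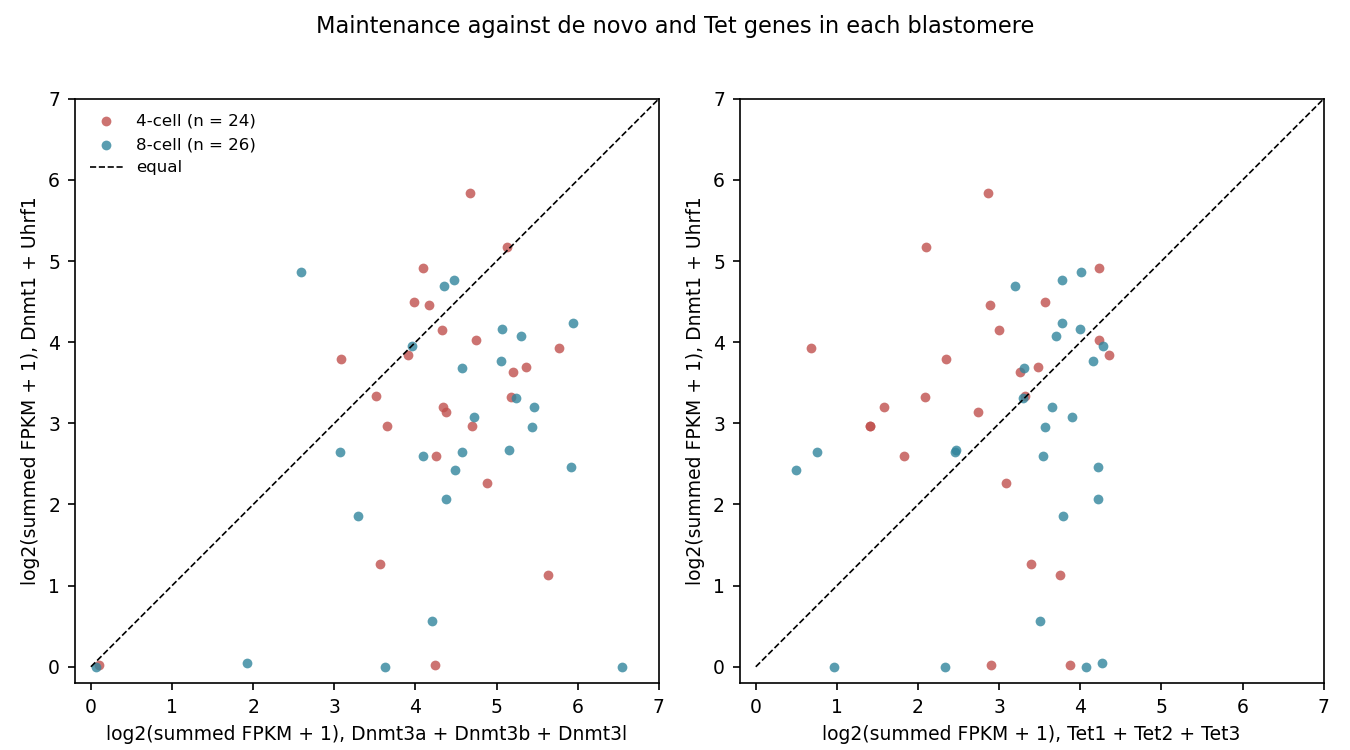
Summed maintenance genes (Dnmt1 and Uhrf1, vertical axis) against summed Dnmt3 genes (left) and summed Tet genes (right) in each blastomere, as log2(summed FPKM + 1), with 4-cell in red (n = 24) and 8-cell in blue (n = 26). Points above the dashed line have more maintenance RNA per length than the other class, 6 of 24 and 3 of 26 on the left and 17 of 24 and 12 of 26 on the right.

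The share of each Dnmt3 gene in its family varied from cell to cell. Dnmt3l was the leading Dnmt3 gene in 17 of the 23 4-cell blastomeres whose Dnmt3 sum was above 1, Dnmt3b in 5 and Dnmt3a in 1. At the 8-cell stage Dnmt3b led in 14 of 25, Dnmt3l in 7 and Dnmt3a in 4. The median share of Dnmt3l was 49.7% in 4-cell and 37.0% in 8-cell blastomeres, and that of Dnmt3b was 27.7% and 38.8%. Shares ran from 0% to 95.4% for Dnmt3l and from 0.177% to 86.2% for Dnmt3b at the 4-cell stage, and the 1 4-cell blastomere led by Dnmt3a was the gene-poor column S20. In the other 22 Dnmt3a never led.

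Tet1 led the Tet family in 21 of the 23 4-cell blastomeres with a Tet sum above 1 and in 19 of 23 at the 8-cell stage. Its median share was 92.4% and 86.9%. Tet2 led in 2 of the 4-cell and 4 of the 8-cell blastomeres, and Tet3 in none. Tet3 reached 44.0% of the Tet sum in a single 4-cell blastomere, S23. The 8-cell blastomeres led by Tet2 were S52, S54, S57 and S58, of which the last pair are gene-poor.

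**Figure D4:**
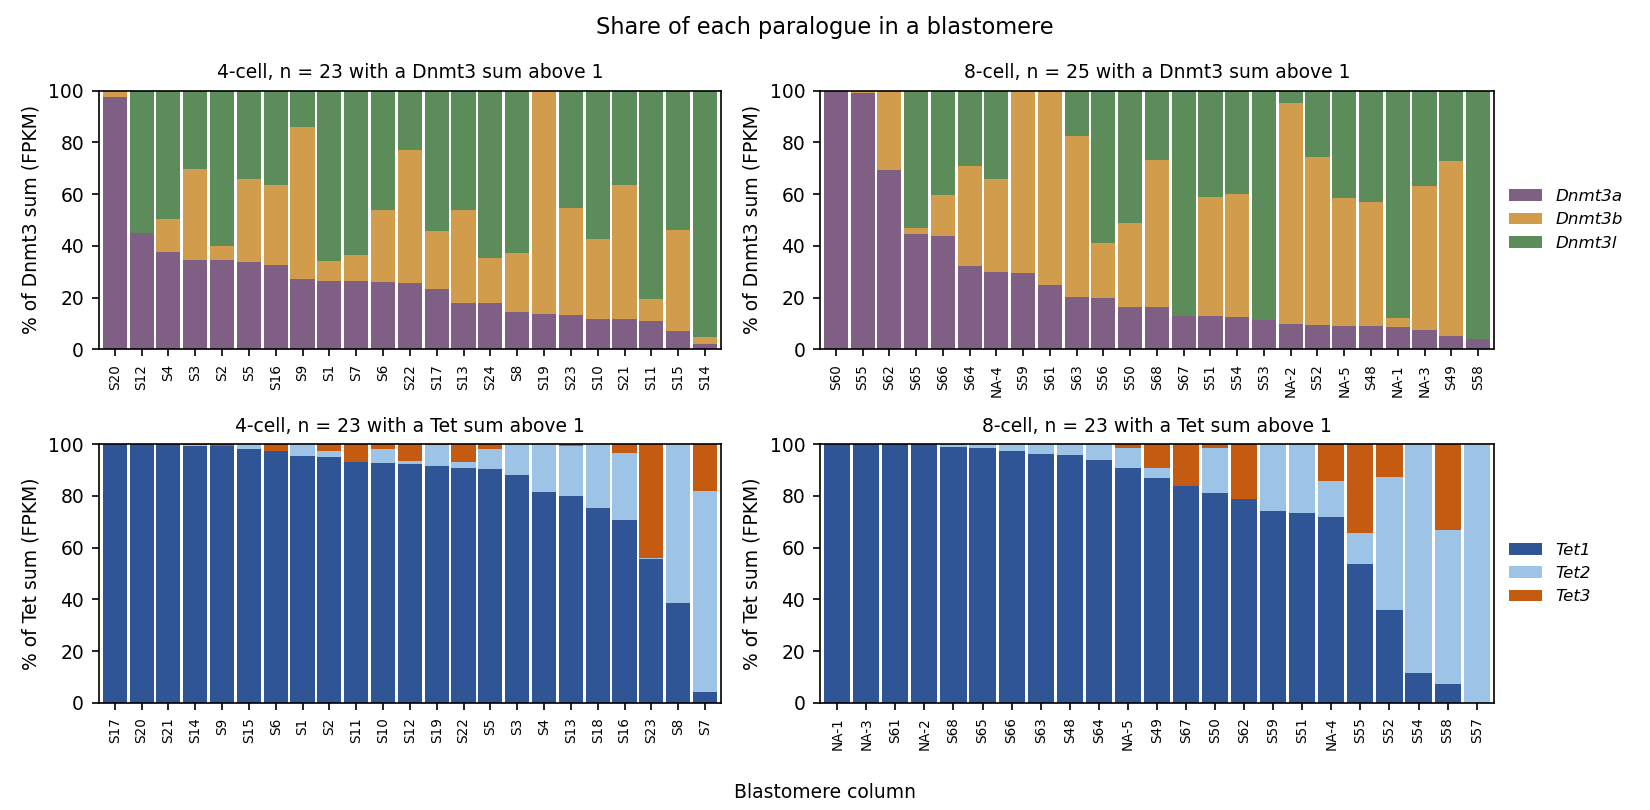
Share of each paralogue in the summed FPKM of the Dnmt3 genes (top) and the Tet genes (bottom) in each blastomere with a sum above 1, sorted by the share of Dnmt3a or Tet1, with n above each panel. Tet1 (dark blue) fills most bars at both stages, while the largest Dnmt3 share belongs to Dnmt3b or Dnmt3l in most cells, and to Dnmt3a in 1 of 23 4-cell (a gene-poor column) and 4 of 25 8-cell blastomeres.

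Blastomeres held many different sets of these genes. With an FPKM above 1 as present, the 24 4-cell blastomeres had 13 different sets and the 26 8-cell blastomeres 19. The most frequent 4-cell set was Dnmt1, Dnmt3a, Dnmt3b, Dnmt3l, Tet1 and Dppa3, in 5 blastomeres. The most frequent 8-cell set was the same with Uhrf1 added, also in 5. All 3 Dnmt3 genes were above 1 in 17 4-cell and 15 8-cell blastomeres. All 9 members were above 1 in 2 8-cell blastomeres, S52 and NA-4, and in no 4-cell blastomere.

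Single blastomeres stood out. In S54 of the 8-cell stage Dnmt3a, Dnmt3b, Dnmt3l and Tet2 each had their highest 8-cell value, 11.4, 44.0, 36.8 and 14 FPKM, while Dnmt1 and Uhrf1 were at 0. S54 had 5391 genes above 1 and a total of 18.4 M fragments, against stage medians of 6773 and 17.2 M. In S21 of the 4-cell stage Dnmt1 and Uhrf1 each had their highest 4-cell value, 35.1 and 20.9 FPKM, and that blastomere had 5336 genes above 1, where the median was 7155. In S60 of the 8-cell stage only Dnmt3a, at 11.3, and Dppa3 were above 1 of the members, and that blastomere had 6537 genes above 1. In S57 only Tet2, at 4.05, and Dppa3 were above 1.

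The 6 8-cell blastomeres with the fewest genes, S53 to S58, had 3548 to 5391 genes above 1 and the other 20 had 5884 to 8078. These 6 stand side by side in the table, and whether they share an embryo was not tested. A low number of genes and a common embryo were therefore not separated here. Dnmt1 was above 1 in 1 of the 6 and in 15 of the 20. Uhrf1 was above 1 in 1 and in 14, and Tet1 in 2 and in 19. Dnmt3b had a median of 0.0149 FPKM in the 6 and 12.8 in the 20. Tet2 and Dnmt3l went the other way. Tet2 was above 1 in 4 of the 6 and in 5 of the 20, and Dnmt3l had a median of 14.6 in the 6 and 6.85 in the 20. Dppa3 had a median of 4476 in the 6 and 3186 in the 20. Of the 4-cell blastomeres, the 4 with under 0.8 of the median number of genes had a Uhrf1 median of 5.17 against 1.48 in the other 20, while Dnmt1 had 1.94 against 8.04 and Dnmt3l 4.47 against 10.7. Dppa3 had 2670 against 3686 there, Dnmt3a 6.19 against 4.28 and Tet1 6.39 against 6.17, while at the 8-cell stage Dnmt3a had 2.67 against 4.44 and Tet1 0.675 against 10.9. Uhrf1, Dnmt3a, Dnmt3l, Tet1 and Dppa3 thus did not lie on the same side in both stages. The part of gene number in these levels was not tested.

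**Figure D5:**
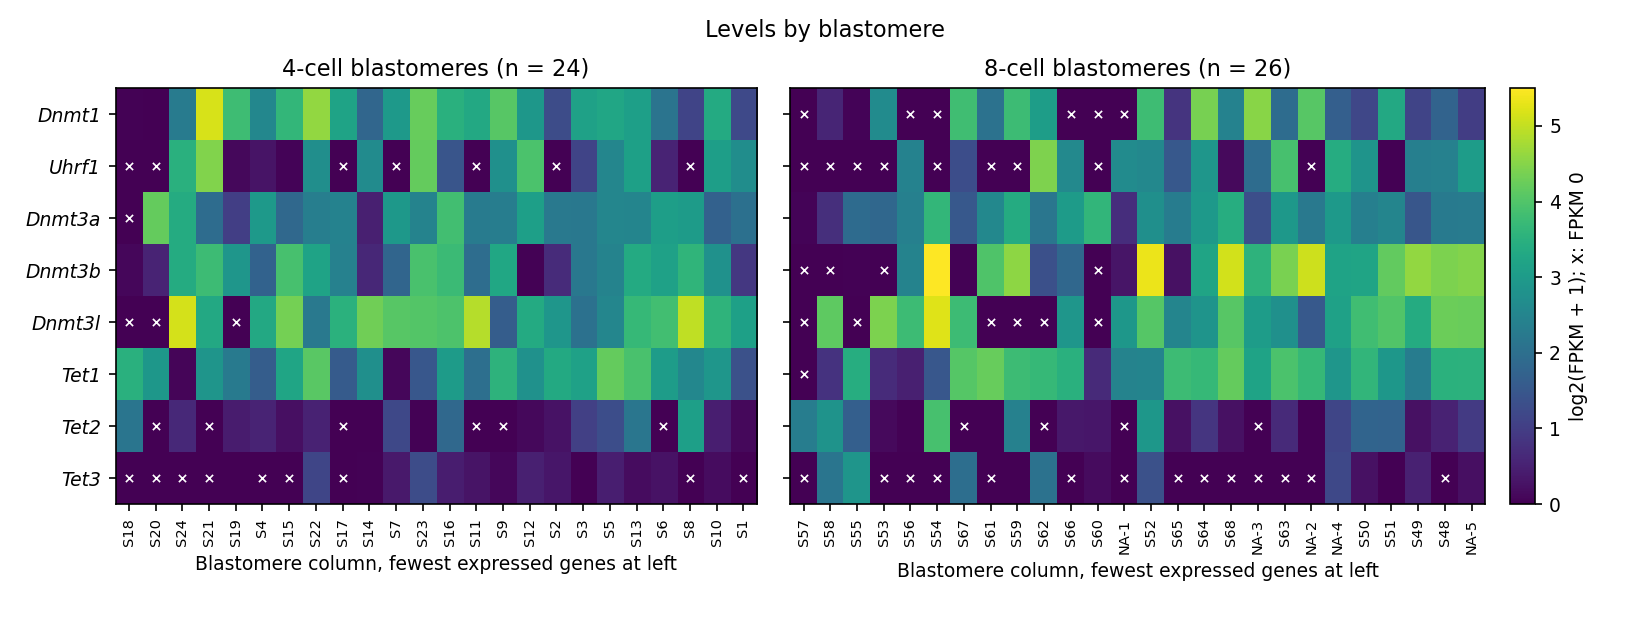
Levels of the 8 measured genes other than Dppa3 as log2(FPKM + 1) in each blastomere, with columns ordered by the number of genes above an FPKM of 1, fewest at the left, and crosses at FPKM 0. The brightest 8-cell cells are Dnmt3b at 44.0 in S54 and 39.5 in S52, and Dnmt1 and Uhrf1 carry crosses in S54.

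The spread among blastomeres was measured as the log2 ratio of the 75th to the 25th percentile of FPKM+1. Over all genes with a median above 1 its median was 1.55 at the 4-cell stage (6763 genes) and 1.52 at the 8-cell stage (6234 genes). Dnmt3b had 1.81 (4-cell) and 4.19 (8-cell), and 5.09% of those 8-cell genes had a larger value. Its 8-cell 25th percentile was 0.205 FPKM. Of the 6 columns with few genes, S53 to S58, 2 were above 1 for Dnmt3b, against 16 of the other 20. Its spread without these 6 is not given here. Dnmt1 had 1.47 and 3.06, with 53.1% and 18.9% of genes above it. Uhrf1 was wide at both stages, with 2.84 and 2.63. Dnmt3a was narrow, with 0.96 and 1.10, and Tet1 had 1.33 and 1.35. Dppa3 had 0.45 and 0.26, and 98.1% and 99.8% of genes were wider. Among the 23 and 26 genes with a median above 1000, 16 and 24 were wider than Dppa3, so its narrow 8-cell range was not shared by most genes of that abundance.

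Over blastomeres of a stage, Spearman's rho is given between genes as a description, since cells share embryos and depth. Over the 36 pairs of members it had a median of 0.09 at the 4-cell stage (n = 24), with a range of -0.46 to 0.63, and a median of 0.03 at the 8-cell stage (n = 26), with a range of -0.61 to 0.53. The highest 4-cell pair was Dnmt1 with Dnmt3b at 0.63, which was 0.35 at the 8-cell stage. The highest 8-cell pair was Dnmt1 with Tet1 at 0.53, which was 0.15 at the 4-cell stage. Without the gene-poor columns the highest 8-cell pair was Dnmt3a with Tet2 at 0.59 (0.34 with them), and Dnmt1 with Tet1 had 0.44. Dnmt3l with Tet1 had -0.46 and -0.23. Dppa3 had -0.61 with Dnmt1 and -0.61 with Dnmt3b at the 8-cell stage, and -0.07 and 0.09 at the 4-cell stage. Without the gene-poor columns these Dppa3 values were -0.54 and -0.51, and -0.39 and -0.14. Dppa3 also had -0.62 with the number of genes above 1 at the 8-cell stage, where Dnmt3b had 0.55, Uhrf1 0.52 and Dnmt1 0.30. At the 4-cell stage the values with the number of genes were 0.28 for Dppa3, 0.03 for Dnmt3b, 0.14 for Uhrf1 and -0.09 for Dnmt1. The part of the number of genes in these pairs was not tested.

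For the 7 members with a median above 1 at both stages, all but Tet2 and Tet3, the most similar genes were sought among the 5865 other genes with a median above 1 at both stages, by the lower of the 4-cell and 8-cell rho. Dppa3 had Fcf1 (0.77), Rpl41 (0.73) and Pomp (0.72). Dnmt3l had Ndufa11 (0.58), Taf12 (0.58) and 2610001J05Rik (0.57), and Dnmt1 had Pom121 (0.57), Fez2 (0.54) and Supt5 (0.54). Dnmt3b had Ugp2 (0.56), Daxx (0.54) and Sh2b3 (0.52), and those of Tet1 included Rasa1 (0.51) and Bms1 (0.49). Uhrf1 had Washc5 (0.51), Zfp729a (0.50) and Ptar1 (0.49). Dnmt3a had the weakest, Mfn2 (0.36), Bok (0.36) and Mtf1 (0.35). None of the nearest 3 genes of these 7 was another member. Each is a highest value picked from 5865 genes, over blastomeres that share embryos. How high the top values of unrelated genes would be was not tested.

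Other genes of the pathway were counted in 6 lists of 51 genes, of which 48 had a row in both tables. Of these, 2 were at least 2-fold lower and 4 at least 2-fold higher at the 8-cell stage, and their median difference was 0.00. Over all genes the shares were 9.67% and 5.17%, against which the counts of each list below are to be read. Of the 9 maintenance helpers 1 was higher, Lig1, the ligase that joins fragments of the new strand, with medians of 3.46 and 8.04 FPKM and a difference of 1.02. Of the 13 base excision genes 2 were higher and none lower. Nthl1, a glycosylase for oxidised pyrimidines, had medians of 3.75 and 15 and a difference of 2.33, and Smug1, a glycosylase for uracil, had 0.475 and 2.80 and a difference of 1.34. The median difference was 0.41 for base excision, 0.46 for cofactor supply, -0.30 for imprint protection and 0.00 for each of the other 3 lists.

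Of the 8 genes of cofactor supply 1 was higher, Ahcyl1, a relative of the enzyme that clears S-adenosylhomocysteine, with medians of 0.435 and 4.49 and a difference of 1.94. Of the 5 deamination and Gadd45 genes listed at both stages, 1 was lower, Gadd45b, a stress-response gene, with medians of 9.50 and 0 and a difference of -3.39. Of the 7 imprint protection genes 1 was lower, Kdm1b, the histone demethylase needed to set maternal imprints in the oocyte, with medians of 2.70 and 0 and a difference of -1.88. Trim28, a corepressor of the same list, lay just under the fold in the other direction, with medians of 59.8 and 121. Other list genes near the fold were Polb and Idh1 with 0.98, Ung with 0.93, and Zfp57 and Mat2b with -0.91. These 6 are named after their values were seen. None of the 6 methyl-CpG readers listed at both stages passed 2-fold. Gadd45b and Kdm1b were past 2-fold in each of the 8 alternative settings run on these lists. Lig1, Smug1 and Ahcyl1 were not, and had 0.74, 0.56 and 0.76 with the mean of log values. Nthl1 was past 2-fold in all but the ratio of mean FPKM, where it had 0.89. With any single blastomere left out, Nthl1 ranged from 0.93 to 3.73, Smug1 from 0.91 to 1.77 and Lig1 from 0.84 to 1.19. Over the settings, 2 to 5 of the 48 genes were 2-fold lower and 4 to 9 were 2-fold higher. In the same settings 919 to 3040 of all 13604 genes were lower and 616 to 2111 higher. The 9 were found where the values were rescaled to equal sums, with 951 of all genes higher. The 5 were found with the ratio of mean FPKM, where 22.3% of all genes were lower.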

How the data were processed

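Single blastomeres of 4-cell and 8-cell mouse embryos were sequenced as Smart-seq2 libraries. The authors aligned reads with STAR 2.5.1b to mm10, counted uniquely aligned reads on RefSeq genes with HTSeq-count and deposited gene tables of FPKM. The gene lengths and totals behind the FPKM are not given in the sources used here. The supplement lists the reads and uniquely mapped reads of each blastomere, which were not matched to columns. A table's stage was taken from its name and the number of genes. No column was given to a sample, since the column names identify none, so the nested lineage model and every other test were not run. The 2 repeat tables were not used. The 78 samples include 5-cell and 6-cell blastomeres, which were not analysed here.

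Entrez numbers were matched to RefSeq on GRCm38.p6, the assembly behind mm10, and 15200 of 15218 and 15320 of 15342 were found. The FPKM totals were estimated from the lowest 0.3 of values of genes with 1 curated transcript, and in every blastomere at least 90.6% of low values lay within 0.1 of a whole fragment. Fragments are not independent molecules. Copies were searched with BLAST 2.17.0, at 90% identity over at least 50% of a transcript. Every listed gene had a value above 0 in at least 1 blastomere. A gene was called present above an FPKM of 1, the threshold of the methods. Stage differences used a pseudocount of 1, and a fold of 2 was counted. The named genes are all members, list genes at least 2-fold apart, and the 3 most alike genes of each member with a median above 1 at both stages, of which 1 is not reported here. Amhr2 and 6 list genes near 2-fold were named after their values were seen. The scripts were tested on simulated data. Members and lists were chosen with earlier results of these data known. Alternatives were other thresholds, a pseudocount of 0.1, other scalings, the mean of log values, the ratio of mean FPKM, a filter on low values, other class members, and leaving out columns named NA, gene-poor blastomeres or single blastomeres.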

Additional observations from a re-analysis of the deposited data

How the results depend on the processing

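Columns were not given to embryos, since their names do not identify them, and so no error between embryos and no p-value is given here. No paired analysis was possible because no embryo has blastomeres of both stages, and the replicate numbers only count the blastomeres of a stage. Lineages within embryos were not compared and embryos were not left out, because columns were not given to embryos by their order or totals. Whether the totals would place the columns was not tested. Of 181 alternative values, 164 stayed within 1.5 times the reported value, 17 moved by more or, for a member's stage difference, crossed 2-fold, and 0 turned the sign of a difference or ratio of at least 2-fold; the cause was not tested. Some of the 164 were bound to stay, since the filter on low values changes no member's difference and rescaling hardly acts on class ratios. Smaller values did turn, among them the 4-cell ratio of maintenance to de novo without Dnmt3l. The Dnmt1 difference stayed at least 2-fold in 9 of 11 alternatives, and was -0.93 with the mean of log values and -0.72 by the ratio of mean FPKM. Of the 9, the filter on low values could not change Dnmt1, which stayed at -1.42. Leaving out single blastomeres counts as 2 of them, by its lowest and highest result. The other members stayed between -0.54 and 0.74 in the alternatives chosen before the added ones. Uhrf1 (1.10) and Dnmt3b (1.15) passed 2-fold without the blastomeres under 0.8 of the median number of genes, where 1297 of 13604 genes were 2-fold lower and 731 higher. By the ratio of mean FPKM Dnmt3b (1.11) and Tet3 (1.82) passed 2-fold, Tet2 had 0.88, and 3040 genes were 2-fold lower and 2111 higher. Both alternatives were added after the data were seen, as were 2 rescalings of the class ratios. These moved none past 1.5 times, and act on a ratio only through the 1 added to each sum. With Dnmt1 alone as maintenance, its log2 ratio to de novo was -1.61 (4-cell) and -2.69 (8-cell), and its 8-cell ratio to oxidation was -1.71. Without Dnmt3l, maintenance over de novo was 0.21 and -0.84, and de novo over oxidation was 0.80 at the 4-cell stage. Of the members, 7 exceeded 1 FPKM in 50% or more of the columns at each stage. Among all listed genes, 44.4% (4-cell) and 40.6% (8-cell) had a median above 1. At 5 FPKM the members numbered 5 (4-cell) and 4 (8-cell), and the share over all genes is not given. Genes at least 2-fold lower numbered 1227 to 1431 with single blastomeres left out and genes at least 2-fold higher 644 to 784. Differences near 0 fragments are limited by depth, which was lowest in S57.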
